A study of Mus musculus with 6 samples.

Results

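Acute-phase proteins are plasma proteins whose level changes quickly in inflammation. Of these, 7 genes were followed in splenic CD11b+Gr-1high cells of mice: Saa3, Saa1 and Saa2 (serum amyloid A), Hp (haptoglobin), Orm1 and Orm2 (alpha-1-acid glycoprotein, also called orosomucoid) and Ambp (the precursor of alpha-1-microglobulin and bikunin). The members are these 7 of the 19057 genes that a probe of the array names alone, and every probe annotated to 1 of them was taken, 10 of 45281 probes. The genes were chosen with their values on these arrays known, so their levels and differences are given as a description, without a test. Each group had 2 Illumina MouseWG-6 v2 arrays, 6 in all, with RNA from cells sorted in 2 independent experiments. All mice were female BALB/c of 6 to 8 weeks. The WT group carried no tumor and received no G-CSF. Mice of the G-CSF group were injected under the skin with this growth factor of neutrophils as a recombinant protein, at 10 µg a day for 5 days. Mice of the 4T1-TB group bore tumors larger than 1000 mm3, from 50000 cells of the mammary carcinoma line 4T1 placed in an abdominal mammary gland. 4T1 is 1 cell line, and the number of mice behind each array is not given in the sources used here. With 2 arrays a group, an error measures the spread between these arrays only, and a higher RNA level per cell and more cells that hold the RNA cannot be told apart.

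Most acute-phase proteins are made by hepatocytes under the control of interleukin-6, interleukin-1 and glucocorticoids, through the transcription factors STAT3, C/EBP and NF-kB. Saa1 and Saa2 of the mouse are mainly liver genes, whereas Saa3 is the form made outside the liver, in macrophages, adipocytes and epithelia among others. Serum amyloid A rides on high-density lipoprotein and attracts myeloid cells through formyl peptide receptors. Haptoglobin, which binds free hemoglobin, is made by the liver and is also stored in the granules of neutrophils. Orosomucoids are lipocalins that carry small lipophilic molecules. Ambp encodes 2 proteins cut from 1 chain, alpha-1-microglobulin, a lipocalin that binds heme, and bikunin, a protease inhibitor.

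The set of promoters used here, on build GRCm38.p6, held those of 5 of the 7 members and lacked those of Hp and Orm1. Each promoter was given as 250 bases before and 50 after the start of the gene. The promoters of Saa3 and Ambp, the members with the higher levels in G-CSF and 4T1-TB cells, are shown beside those of Saa1 and Saa2, which lie close to Saa3 and were detected on at most 1 array. Each is written on the strand of its gene, 5′ to 3′, in lower case, and capitals mark every match to the C/EBP-type motif TTNNGCAA on either strand. No match overlaps another motif that was searched. Saa3 lies on the minus strand at chr7:46715627-46715926, Ambp on the minus strand at chr4:63154123-63154422, Saa1 on the minus strand at chr7:46742931-46743230 and Saa2 on the plus strand at chr7:46751583-46751882.
Saa3: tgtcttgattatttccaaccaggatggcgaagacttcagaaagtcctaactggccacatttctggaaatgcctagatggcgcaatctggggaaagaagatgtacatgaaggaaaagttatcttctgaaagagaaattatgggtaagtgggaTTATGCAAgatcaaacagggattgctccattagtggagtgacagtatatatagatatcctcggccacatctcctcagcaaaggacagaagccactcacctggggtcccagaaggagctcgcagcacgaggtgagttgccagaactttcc
Ambp: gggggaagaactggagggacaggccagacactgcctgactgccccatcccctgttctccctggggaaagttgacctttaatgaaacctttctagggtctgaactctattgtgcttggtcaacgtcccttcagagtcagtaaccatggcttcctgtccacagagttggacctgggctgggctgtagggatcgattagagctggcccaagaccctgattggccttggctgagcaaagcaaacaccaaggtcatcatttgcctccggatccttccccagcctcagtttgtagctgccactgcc
Saa1: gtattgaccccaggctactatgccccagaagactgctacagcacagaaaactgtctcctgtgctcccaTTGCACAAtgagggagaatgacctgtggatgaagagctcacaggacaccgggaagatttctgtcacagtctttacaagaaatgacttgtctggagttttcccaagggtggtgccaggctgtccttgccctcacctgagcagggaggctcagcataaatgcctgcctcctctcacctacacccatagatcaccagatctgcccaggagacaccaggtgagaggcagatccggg
Saa2: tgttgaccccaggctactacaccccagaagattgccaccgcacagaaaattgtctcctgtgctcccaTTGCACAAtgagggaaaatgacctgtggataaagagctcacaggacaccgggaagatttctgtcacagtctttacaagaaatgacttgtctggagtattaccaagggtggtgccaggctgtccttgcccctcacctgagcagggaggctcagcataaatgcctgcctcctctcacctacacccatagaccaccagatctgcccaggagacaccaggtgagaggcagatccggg
The Saa3 promoter holds 1 match, at bases -99 to -92 from the start of the gene. The matches of Saa1 and Saa2 run on the opposite strand, at -182 to -175 and at -183 to -176. No match was found in the Ambp window. The motif has a match in 10.8% of the 32851 promoters of the same length, so a match is a description of these letters only. The STAT-type motif TTCNNNGAA, searched on both strands and found in 8.3% of promoters, has no match in the 5 members' windows. Aligned over the window, the Saa1 and Saa2 promoters are 95.3% identical, and Saa3 is 50.9% identical to Saa1 and 50.2% to Saa2.

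Between 7421 and 10036 probes were detected on an array, that is, had a detection p under 0.05 against the negative control beads. Where a value is called a level, it is the normalized log2 intensity of a probe, and a difference is that of 2 group means on this scale with the standard error (SE) of the fit. A probe met the criterion when its group means differed by 2-fold or more and its unadjusted P in limma was under 0.01. Of the 10 marker genes of the sorted cells, 8 were measured, of which 6 to 8 were detected on each array. The calprotectin genes S100a8 and S100a9 lay at levels of 13.70 to 14.27 and 12.58 to 12.95. Itgam, which encodes CD11b, was detected on both WT arrays at 7.78 and 7.95 and on none of the other 4. The G-CSF receptor gene Csf3r read 11.06 and 11.26 in WT, 7.59 and 9.08 in G-CSF and 7.67 and 7.61 in 4T1-TB. Summed over the 8 markers, the normalized intensity was 39619 and 40015 in WT, 31630 and 29024 in G-CSF and 34945 and 33853 in 4T1-TB. Their median difference from WT was -0.71 in G-CSF and -0.64 in 4T1-TB, beside 0.01 over all genes. In each group 0 of them met the criterion upward and 2 downward, where 2.02% and 2.35% of all genes fell. Arrays G-CSF replicate 1 and 4T1-TB replicate 1 stood apart by red cell genes: summed over 6 erythroid markers, the normalized intensity was 11822 and 25615 there against 815 to 1885 on the other 4. The same 2 arrays stood apart by lymphocyte genes, with Cd3e at 7.84 and 7.34, Thy1 at 7.94 and 7.50 and the B cell gene Cd79b at 8.31 and 7.71, against 6.68 to 7.04 elsewhere. Summed over 6 T cell markers the intensity was 1219 and 1421 in WT, 2415 and 1953 in G-CSF and 2032 and 2784 in 4T1-TB, with 4 detected on each of these 2 arrays and 1, Cd3d, on each of the others. At most 1 of the 10 hepatocyte markers was detected on any array, Alb and Apoa1 on none, and their summed intensity lay between 1167 and 1238 on all 6. The summed intensity of 11 macrophage markers was 2225 and 2298 in WT, 1543 and 1669 in G-CSF and 1352 and 1579 in 4T1-TB, and that of 8 monocyte markers was 5959 and 6517, 11119 and 12570, and 11176 and 12090. Fcgr4 was by far the brightest of these monocyte markers on every array, so their sum mostly follows this gene. Over the 8, the median difference from WT was -0.09 in both groups, and in each 1 gene met the criterion upward and 1 downward.

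Among the members, Saa3 lay the furthest above WT in both other groups. On its single probe, ILMN_2772632, WT cells gave levels of 6.91 and 6.92, G-CSF cells of 10.61 and 11.15 and 4T1-TB cells of 10.37 and 10.44. In deposited intensity these are 116.6 and 127.1, then 2862.4 and 2859.1, then 2113.7 and 1440.4. Both WT arrays were at the background, with detection p of 0.433 and 0.422, and the other 4 arrays lay far above it, with a detection p of 0 each. Saa3 in WT cells was therefore not above background, and a fold is given as a lower bound, for which the lowest detected signal of each WT array stands in place of a lower value. By this, Saa3 in G-CSF cells was at least 14.0-fold higher than in WT cells, and Saa3 in 4T1-TB cells at least 10.1-fold higher. The fitted differences were 3.97 (SE 0.17) and 3.49 (SE 0.17). These comparisons share the WT arrays, as do all pairs of differences from WT given here. The 4T1-TB arrays lay 0.47 below the G-CSF arrays in the mean (SE 0.17), without overlap, and 0.20 below without G-CSF replicate 2. Without its array rich in red cell and lymphocyte genes, each group kept 1 array, with differences from WT of 4.24 for G-CSF and 3.52 for 4T1-TB. The T cell gene Cd3d still read 10.40 and 11.12 on the arrays kept. Of the monocyte markers, whose sum was also higher off the WT arrays, Fcgr4 read 12.06 and 12.25 in WT and 13.29 to 13.50 on the other 4, whereas Treml4 read 9.38 and 9.36 in WT and 7.08 to 7.33 elsewhere, and Cd209a and F13a1 were detected on no array. The T cell sum was higher off the WT arrays as well, where Cd3d read 10.35 to 11.12 against 9.35 and 9.68 in WT, while Cd4 and Cd8a were detected on no array. The part of either kind of cell in the Saa3 and Ambp levels was not tested. When the background was removed with neqc, the differences were 6.48 and 5.99.

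Ambp was also higher in both groups than in WT, and it was detected on every array. The WT arrays read 7.12 and 7.18 on its single probe, ILMN_2904137, just past the detection threshold with p of 0.019 and 0.021. The G-CSF arrays read 10.06 and 10.42 and the 4T1-TB arrays 10.05 and 10.26. Intensities were 133.9 and 142.5 in WT, 1994.1 and 1705.2 in G-CSF, and 1690.5 and 1246.2 in 4T1-TB. No WT array came near the other 4 on either scale. The G-CSF and 4T1-TB ranges overlapped in level, whereas in intensity both G-CSF arrays lay above both 4T1-TB arrays. The difference from WT was 3.09 (SE 0.14) in G-CSF and 3.01 (SE 0.14) in 4T1-TB, or 8.54-fold and 8.03-fold, and 4T1-TB differed from G-CSF by -0.09 (SE 0.14). Leaving out G-CSF replicate 1 gave 3.28, and leaving out 4T1-TB replicate 1 gave 3.11. With neqc the differences were 5.06 and 4.96.

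Orm1 was the member that separated 4T1-TB from both other groups. Its probe ILMN_1226935 was detected on all 6 arrays, at 7.71 and 8.04 in WT, 7.62 and 8.05 in G-CSF, and 9.63 and 9.66 in 4T1-TB. The intensity was 174.8 and 180.6 in WT, 246.4 and 290.9 in G-CSF, and 1246.8 and 815.9 in 4T1-TB. In level WT and G-CSF overlapped, whereas in intensity, before normalization, both G-CSF arrays lay above both WT arrays. On both scales the 4T1-TB arrays lay above all others. Orm1 was 3.41-fold higher in 4T1-TB than in WT, a difference of 1.77 (SE 0.17), and 3.50-fold higher in 4T1-TB than in G-CSF, a difference of 1.81 (SE 0.17). In 4T1-TB against G-CSF 0 of the 45281 probes, Orm1 included, had a limma adjusted p under 0.05. Between G-CSF and WT the difference was -0.04 (SE 0.17), with a 95% interval of -0.46 to 0.38. The direction of that small difference changed with the scaling, to 0.61 under median centering, and the difference of 4T1-TB from WT was then 2.54.

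**Figure D1:**
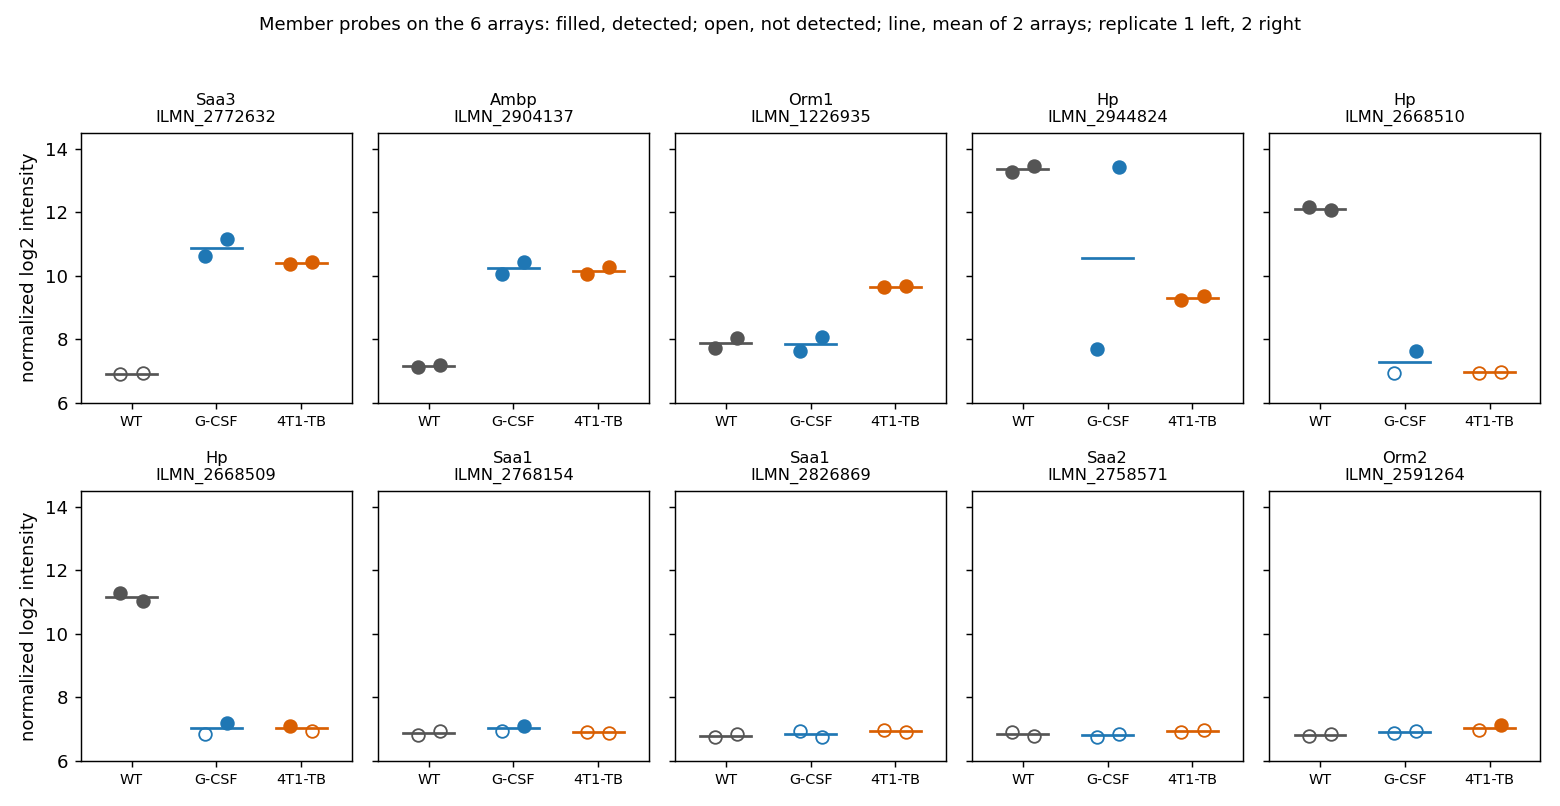
Normalized log2 intensity (vertical axis) of all 10 member probes by group (horizontal axis: WT, G-CSF, 4T1-TB), 1 point an array, filled where detected and open where not, with a line at the mean of 2 arrays. Saa3 and Ambp are near 7 in WT and above 10 in the other groups, and Orm1 is high in 4T1-TB. The Hp probes are highest in WT, except that on ILMN_2944824 G-CSF replicate 2 lies within the WT range. The probes of Saa1, Saa2 and Orm2 stay near 7.

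Hp gave different accounts by probe, so each of its 3 probes is described on its own. The level of a probe depends on its sequence as well as on the RNA, and levels are not compared between probes. The positions of the probes in the Hp transcripts are not given in the sources used here.

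On probe ILMN_2668510 Hp was high in WT cells and at or near the background elsewhere. It read 12.15 and 12.06 in WT, 6.92 and 7.62 in G-CSF, and 6.94 and 6.98 in 4T1-TB. G-CSF replicate 1 and both 4T1-TB arrays were not detected, and G-CSF replicate 2 was. The intensity was 3174.3 and 2092.1 in WT and between 122.2 and 204.0 on the other 4 arrays. Against WT, the 4T1-TB signal was at least 33.3-fold lower, with a fitted difference of -5.14 (SE 0.22), and its difference in G-CSF was -4.84 (SE 0.22).

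Probe ILMN_2668509 was likewise highest in WT. WT read 11.29 and 11.05, G-CSF 6.86 and 7.19, and 4T1-TB 7.11 and 6.96, with G-CSF replicate 1 and 4T1-TB replicate 2 not detected. The WT arrays were apart from all others, and the G-CSF and 4T1-TB arrays overlapped. The difference from WT was -4.15 (SE 0.14) in G-CSF and -4.14 (SE 0.14) in 4T1-TB, and the 4T1-TB and G-CSF means differed by 0.01 (SE 0.14).

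The third and brightest probe, ILMN_2944824, split the G-CSF arrays. It was detected on all 6, at 13.26 and 13.45 in WT, 7.70 and 13.42 in G-CSF, and 9.23 and 9.34 in 4T1-TB. The intensity was 8058.1 and 6747.4 in WT, 267.0 and 13019.5 in G-CSF, and 931.5 and 649.9 in 4T1-TB. G-CSF replicate 2 was within the WT range in level and above it in intensity, and replicate 1 was lower than any other array on both scales. The 4T1-TB arrays lay between, with a difference from WT of -4.07 (SE 1.71) and no overlap. The SD was 4.04 between the G-CSF arrays, 0.14 in WT and 0.08 in 4T1-TB. In the fit of all arrays this probe did not meet the criterion in 4T1-TB, and it met it without either G-CSF array and in a fit of the WT and 4T1-TB arrays alone. The mean difference of G-CSF from WT, -2.80 (SE 1.71, 95% interval -7.06 to 1.47), describes neither array: without G-CSF replicate 1 it was 0.06, and without replicate 2 it was -5.66, where the criterion was met. The difference of 4T1-TB from G-CSF, -1.27 (SE 1.71), likewise became -4.13 and 1.59, and both met it. G-CSF replicate 1 is an array rich in red cell and lymphocyte genes, and so is 4T1-TB replicate 1, which read close to 4T1-TB replicate 2 on this probe. The part of the RNA of these other cells was not tested.

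**Figure D2:**
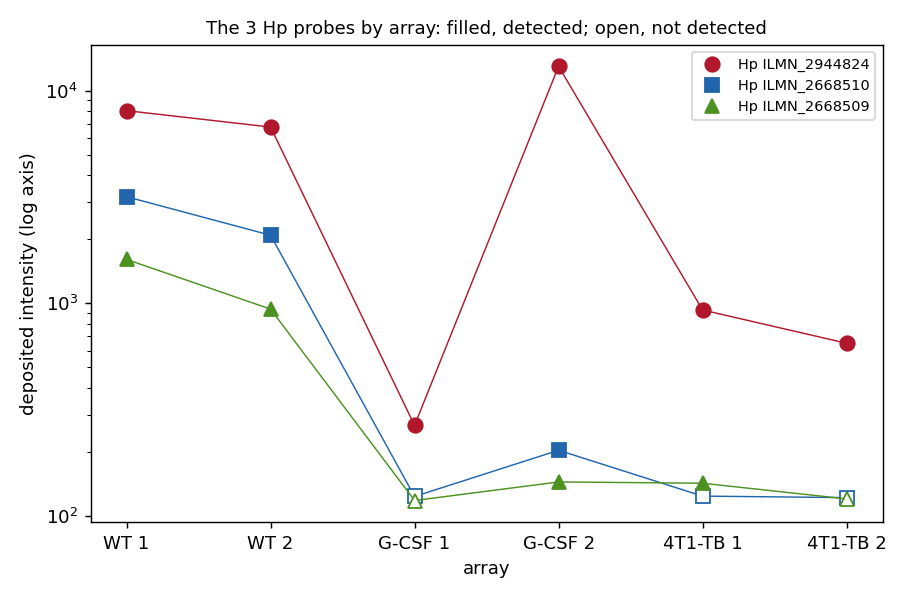
Deposited intensity of the 3 Hp probes (vertical log axis) on each of the 6 arrays (horizontal axis), filled where detected and open where not, with lines joining the points of a probe only to guide the eye. All 3 probes are high in WT, and only ILMN_2944824 is high on 1 array outside WT, G-CSF replicate 2, at 13019.5; heights are not comparable between probes.

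The gap of 5.72 between the G-CSF arrays on ILMN_2944824 ranked 3 of 45281 probes, where the median gap of detected probes was 0.22. It was not alone. Gaps of 4 or more were found for 23 probes in G-CSF, with replicate 2 higher in 17 and replicate 1 higher in 6, for 10 probes in 4T1-TB and for 0 in WT. Of the 359 probes whose WT mean lay at least 2 above the 4T1-TB mean, 78 had G-CSF replicate 2 within 1 of the WT mean and replicate 1 less than 1 above the 4T1-TB mean, 0 had the reverse, and 223 had both G-CSF arrays less than 1 above the 4T1-TB mean. Among the non-member genes nearest to ILMN_2944824 in pattern, by the Euclidean distance between centered log2 levels over the 6 arrays, were Cdk2ap2 (distance 0.90), the ribosomal protein gene Rps9 (1.16), the glutathione peroxidase gene Gpx4 (1.19), the sorting receptor gene Sorl1 (1.22) and the AP-1 gene Junb (1.31). Cdk2ap2, for one, read 12.36 and 12.30 in WT, 7.25 and 12.14 in G-CSF and 8.63 and 9.08 in 4T1-TB. Disagreement between probes of a gene was also seen beyond Hp. A level of 9 or more on both WT arrays was found for at least 2 probes of 154 genes. Of these genes, 58 in G-CSF and 71 in 4T1-TB had a probe at least 2 below WT. In 16 and 18 of them, another probe lay within 0.5 of WT. Between the WT replicates 0 genes had a probe lower by 2, so that pair could show no such split and is no measure of it. The part of probe position or array in the Hp values was not tested.

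The remaining members were near the background, each detected on at most 1 array. Saa1 read 6.82 and 6.94 in WT, 6.95 and 7.10 in G-CSF, and 6.91 and 6.88 in 4T1-TB on probe ILMN_2768154, which was detected on G-CSF replicate 2 alone. Its second probe, ILMN_2826869, lay between 6.74 and 6.99 and was detected on no array, and neither was the Saa2 probe ILMN_2758571, between 6.74 and 6.98. Saa1 and Saa2, the liver forms, were thus at or below the detection limit where Saa3 was bright. Orm2 read 6.79 and 6.86 in WT, 6.87 and 6.95 in G-CSF and 6.97 and 7.13 in 4T1-TB on ILMN_2591264 and was detected on 4T1-TB replicate 2 alone. Differences from WT on these 4 probes lay between -0.05 and 0.23.

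**Figure D3:**
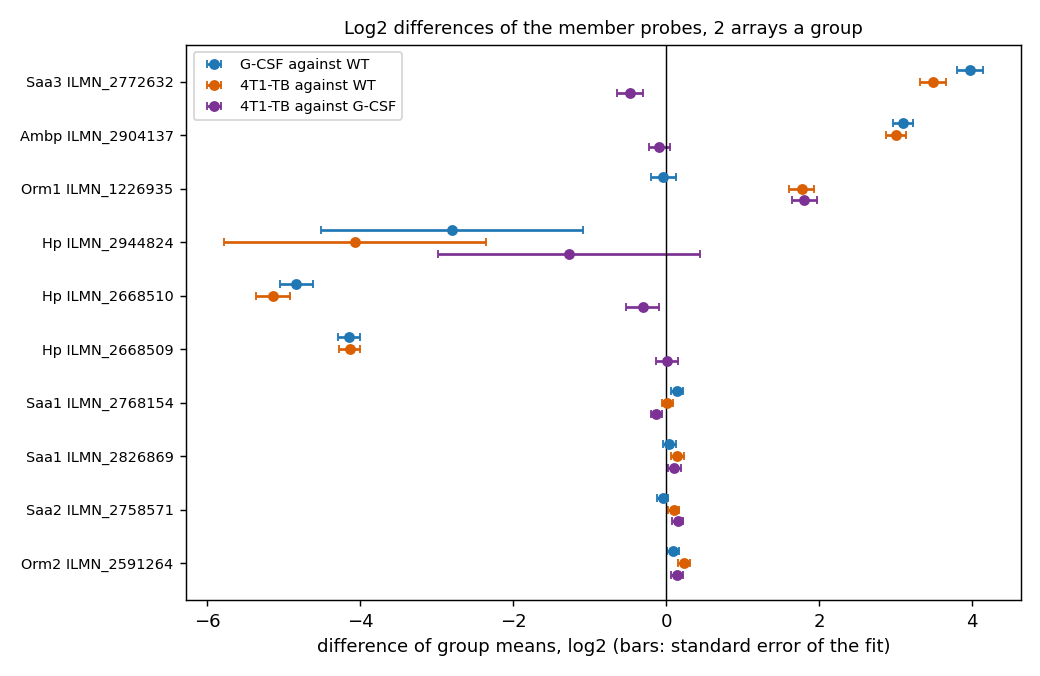
Differences of group means on the log2 scale (horizontal axis) for the 10 member probes (vertical axis), with the standard error of the fit as bars, 2 arrays a group. Saa3 and Ambp lie about 3 to 4 above WT in both groups, Orm1 is apart from 0 in both comparisons that hold 4T1-TB, Hp lies below WT, with a wide bar of 1.71 for ILMN_2944824, and the other probes sit near 0.

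Counted by probe, 2 of the 10 met the criterion upward in G-CSF against WT (Saa3 and Ambp) and 2 downward (the Hp probes ILMN_2668510 and ILMN_2668509), where 1.32% and 1.56% of all probes did. In 4T1-TB against WT 3 were higher (Saa3, Ambp and Orm1) and the same 2 Hp probes lower (3 without either G-CSF array, when ILMN_2944824 met it too), where 1.76% and 1.75% of all probes were. In 4T1-TB against G-CSF 1 was higher (Orm1) and 0 lower, where 0.0729% and 0.00221% were. These comparisons chose the members, so nothing is read from these counts. Of all probes that met the criterion, 45.8% were higher in G-CSF and 50.2% in 4T1-TB than in WT, and under median centering in place of quantile normalization 86.8% and 84.8% were. In 4T1-TB against G-CSF the share was 97.1%, and 80% under median centering. Of the 10 probes, 6 were detected on at least 2 arrays.

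The genes next to the members in the genome were read on their own probes. On chromosome 7 of GRCm38.p6 the order of protein-coding genes is Tph1, Saal1, Saa3, Saa4, Saa1, Saa2, Hps5 and Gtf2h1. Saa4 was detected on no array, Saal1 differed from WT by 0.63 and 0.77 in the G-CSF and 4T1-TB groups, and Gtf2h1, a subunit of the transcription factor TFIIH, by 0.89 and 1.08. On chromosome 4 Ambp lies between Zfp618 and Kif12, and Orm1, Orm3 and Orm2 follow Kif12 and Col27a1. None of Zfp618, Kif12, Col27a1 and Orm3 was detected on any array, so from Zfp618 to Orm2 the genes detected on all 6 were Ambp and Orm1. Next to Zfp618, Rgs3, a regulator of G-protein signaling, differed from WT by -2.91 and -2.86. On chromosome 8 the neighbors of Hp, Txnl4b and Dhodh, differed from WT by 0.30 and 0.25, and by -0.03 and -0.01, the latter without being detected.

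Nearest to Saa3 in pattern were Nsmce1 (distance 0.92), a subunit of the SMC5/6 complex, Dbi (1.21), which binds acyl-CoA, Gclm (1.26), a subunit of glutamate-cysteine ligase, Stfa2 (1.26), a stefin A, and Mif (1.27), the macrophage migration inhibitory factor. Stfa2 read 7.24 and 7.41 in WT, 12.36 and 11.36 in G-CSF and 10.99 and 11.36 in 4T1-TB. Nearest to Orm1 were the proton channel gene Hvcn1 (0.70), Birc5 (0.81), which encodes survivin, Cenpa (0.85), which encodes the centromeric histone H3 variant, the zinc transporter gene Slc39a11 (0.87) and the ribosomal protein gene Rps4x (0.89). Hvcn1 read 7.44 and 7.49 in WT, 7.92 and 7.48 in G-CSF and 9.29 and 9.33 in 4T1-TB. The distances were taken over 6 arrays among 9871 candidate probes, and they are a description of likeness on arrays that share their groups.

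Of 35 other acute-phase and plasma protein genes, 31 were measured and 9 were detected on at least 2 arrays, while 15 were detected on none. In G-CSF 0 rose and 1 fell, and in 4T1-TB 0 rose and 1 fell, where the shares of all genes were 2.61% up and 2.02% down in G-CSF, and 3.39% up and 2.35% down in 4T1-TB. The gene that fell was Trf, which encodes transferrin, a negative acute-phase protein. It read 9.50 and 9.58 in WT, 7.08 and 7.47 in G-CSF and 7.00 and 7.03 in 4T1-TB. Trf fell by 2.26 in G-CSF (SE 0.13, adjusted p = 0.00129, limma with Benjamini-Hochberg adjustment) and lay at least 5.64-fold below WT in 4T1-TB (limma adjusted p = 0.00097). At an unadjusted P under 0.05 in limma, with no demand on the fold, 2 were higher and 2 lower in each comparison with WT. No share of all genes was counted at this looser threshold, so nothing is read from counts made at it. In 4T1-TB against G-CSF 0 met the criterion, where 0.142% and 0.00525% of all genes rose and fell, and 1 was higher and 1 lower at an unadjusted P under 0.05. The median difference over the list was 0.02 in both comparisons with WT, beside 0.01 over all genes. Without G-CSF replicate 2, 2 genes met the criterion in G-CSF, and without either 4T1-TB array 2 did in 4T1-TB. The brightest genes of the list, named after their values were seen, were Lcn2, the siderophore-binding lipocalin 2 of neutrophil granules, and Lrg1, a leucine-rich glycoprotein of plasma and granules. Lcn2 read 13.11 and 13.10 in WT, 13.31 and 13.43 in G-CSF and 13.70 and 14.27 in 4T1-TB, and its differences from WT of 0.27 and 0.88 did not reach 2-fold, but without 4T1-TB replicate 1 it met the criterion in 4T1-TB at 1.17, and under median centering in both groups at 1.24 and 1.57. Lrg1 differed from WT by 0.34 and 0.36, and by 1.70 in G-CSF under median centering, where it met the criterion.

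Of 32 genes for the inducers of the acute-phase response, their receptors and the factors downstream, 30 were measured and 23 were detected on at least 2 arrays. In G-CSF 1 rose and 4 fell, and in 4T1-TB 2 rose and 5 fell. The shares of all genes were 2.61% upward and 2.02% downward in G-CSF, and 3.39% and 2.35% in 4T1-TB. Among the 7344 genes detected on at least 2 arrays these shares were 6.77% and 5.24%, and 8.8% and 6.09%. Tnfrsf1a, the main receptor of tumor necrosis factor, read 9.76 and 9.31 in WT and between 6.86 and 7.05 on the other 4 arrays, none of them detected. It lay at least 5.68-fold below WT in G-CSF and at least 5.62-fold below it in 4T1-TB (limma adjusted p = 0.00139 and 0.00143), and its other probes differed from WT by -2.10 to -2.04. Osm, which encodes oncostatin M, an inducer of the interleukin-6 family, read 10.16 and 10.07 in WT, 11.69 and 11.41 in G-CSF and 11.98 and 11.30 in 4T1-TB. Osm rose by 1.43 (SE 0.23, limma adjusted p = 0.0285) in G-CSF and by 1.53 (SE 0.23, limma adjusted p = 0.021) in 4T1-TB, and without WT replicate 2 the former missed the criterion at 1.39. Il6ra, the interleukin-6 receptor, fell, with differences of -1.10 and -1.18 (limma adjusted p = 0.0305 and 0.0223), fell short of 2-fold without G-CSF replicate 1 (-0.90) or 4T1-TB replicate 1 (-0.97), and turned to 0.39 and 0.09 under median centering. Il1b met the criterion at -2.11 in G-CSF, with a limma adjusted p of 0.0695, and lost it without any 1 of the WT or 4T1-TB arrays (-2.19 to -2.04). The others that fell, named after their values were seen, were Tnf, with -1.23 in G-CSF and -1.68 in 4T1-TB (limma adjusted p = 0.105 and 0.0339), and in 4T1-TB Nfkbia, the NF-kB inhibitor, with -2.64 (limma adjusted p = 0.0668), beside Il1b with -1.69 (limma adjusted p = 0.122). In G-CSF Tnf missed the criterion without any 1 array other than G-CSF replicate 2 (-1.39 to -0.77), and in 4T1-TB without WT replicate 1 (-1.52) or either 4T1-TB array (-1.71 and -1.66). Its other probe, detected on 3 arrays, differed by -0.71 and -0.92. In 4T1-TB Nfkbia and Il1b missed it without any 1 of the WT or 4T1-TB arrays, with -2.76 to -2.52 and -1.76 to -1.61. All of these calls were lost under median centering, where Tnf differed by -0.45 and -0.97, Il1b by -0.94 and -0.92 and Nfkbia by -1.62, and those of Tnf in G-CSF and of Nfkbia and Il1b in 4T1-TB also under neqc.

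Of the factors that act on acute-phase promoters, 1 met the criterion upward. Cebpe, the C/EBP factor of late granulocyte development, read 7.45 and 7.61 in WT, 8.19 and 7.51 in G-CSF and 8.87 and 9.07 in 4T1-TB. It rose by 1.44 in 4T1-TB against WT (SE 0.22, limma adjusted p = 0.0234) and met the criterion against G-CSF at 1.12 with a limma adjusted p of 1. That call was lost without G-CSF replicate 2 (0.78), without either 4T1-TB array (1.22 and 1.02) and under neqc and median centering, and the other 3 probes of Cebpe differed from WT by -1.01, -0.28 and -0.22 in 4T1-TB. In 4T1-TB against G-CSF 1 of the list rose, where 0.142% of all genes did, and 0 fell, also at an unadjusted P under 0.05 in limma. Cebpb, Stat3 and Socs3, named after their values were seen, missed the criterion in all comparisons, with differences from WT of 0.10 and 0.02, 0.56 and 0.42, and 0.63 and 0.55 in G-CSF and 4T1-TB. They met it under median centering, Cebpb at 1.45 in G-CSF, Stat3 at 1.95 and 1.58 and Socs3 at 2.20 and 1.77, and Socs3 met it in G-CSF without G-CSF replicate 1 at 1.21. The median over the list was -0.03 in G-CSF and -0.01 in 4T1-TB. Without WT replicate 2 the count in G-CSF was 2 instead of 5, without WT replicate 1 or either 4T1-TB array it was 3, and in 4T1-TB the count was 4 instead of 7 without WT replicate 1 or either 4T1-TB array. The count against G-CSF was 2 without G-CSF replicate 1 and 0 without either 4T1-TB array.

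Of 20 receptors and partners of serum amyloid A and haptoglobin and genes of heme clearance, 18 were measured and 13 detected on at least 2 arrays. In each comparison with WT 2 rose and 0 fell, with median differences of 0.03 for G-CSF and 0.02 for 4T1-TB, and 0 met the criterion in 4T1-TB against G-CSF. The upward share was 6.77% of detected genes in G-CSF and 8.8% in 4T1-TB. At an unadjusted P under 0.05 in limma 6 were higher and 2 lower in G-CSF, as were 5 and 2 in 4T1-TB, and 0 were higher and 1 lower in 4T1-TB against G-CSF. The share of all genes at this looser threshold was not counted, so nothing is read from these numbers. Tlr4, the lipopolysaccharide receptor, which serum amyloid A can also engage, read 7.55 and 7.72 in WT, 8.84 and 8.47 in G-CSF and 8.90 and 8.58 in 4T1-TB. It rose by 1.02 and 1.11 (SE 0.16 each, limma adjusted p = 0.029 and 0.0201) on this probe, whereas its other probe detected on at least 2 arrays differed by -0.69 and -0.88. Blvrb, a biliverdin reductase of heme breakdown, rose by 1.36 (SE 0.20, limma adjusted p = 0.0235) in G-CSF and by 1.03 (SE 0.20, limma adjusted p = 0.0518) in 4T1-TB, and its other probe differed by 0.40 and 0.25. Blvrb is also a red cell gene, and its level was 10.40 on G-CSF replicate 1 and 9.88 on 4T1-TB replicate 1 against 9.79 and 9.65 on the other array of each group. In G-CSF Tlr4 missed the criterion without WT replicate 1 (0.93) or G-CSF replicate 1 (0.83). In 4T1-TB Tlr4 missed it without 4T1-TB replicate 1 (0.94), and Blvrb without any 1 of the WT or 4T1-TB arrays (0.91 to 1.14). The count in G-CSF was 5 without G-CSF replicate 2 and 1 without G-CSF replicate 1, that in 4T1-TB was 0 without 4T1-TB replicate 1 and 1 without either WT array or 4T1-TB replicate 2, and that against G-CSF was 2 without G-CSF replicate 1. Fpr2, the formyl peptide receptor that binds serum amyloid A, named after its values were seen, was bright on all arrays, at 12.65 and 12.75 in WT, 13.08 and 13.19 in G-CSF and 13.10 and 13.60 in 4T1-TB. Its differences of 0.43 and 0.65 were under 2-fold, and met the criterion under median centering at 1.46 and 1.43.

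Of the 20 granule protein genes of neutrophils, all measured and 17 detected on at least 2 arrays, 0 rose and 3 fell in G-CSF, and 5 rose and 3 fell in 4T1-TB. Among all detected genes the upward share was 6.77% and the downward 5.24% in G-CSF, and 8.8% and 6.09% in 4T1-TB, and over all genes 2.61% and 2.02%, and 3.39% and 2.35%. At an unadjusted P under 0.05 in limma 3 were higher and 5 lower in G-CSF, a threshold at which the share of all genes was not counted. Fcnb, which encodes ficolin B, read 7.28 and 7.09 in WT, 7.93 and 6.96 in G-CSF and 9.81 and 9.92 in 4T1-TB, and Chil3, a chitinase-like lectin, read 8.85 and 8.81, 9.89 and 8.80, and 10.85 and 10.94. Both 4T1-TB arrays lay above all others on each probe, as they did for Orm1. Fcnb rose by 2.68 (SE 0.30, limma adjusted p = 0.00888) and Chil3 by 2.07 (SE 0.33, limma adjusted p = 0.0259) against WT. Against G-CSF they met the criterion at 2.42 and 1.55, with limma adjusted p of 0.811 and 1, and Chil3 lost it without either WT or either 4T1-TB array (1.51 to 1.60). The other probe of Fcnb differed from WT by 0.51 and the other detected probe of Chil3 by 2.33 in 4T1-TB. Olfm4, olfactomedin 4 of the specific granules, fell, with differences of -1.06 and -1.05 (SE 0.07 each, limma adjusted p = 0.00208 and 0.00209), and missed 2-fold in both without WT replicate 1 (-0.98 in 4T1-TB). Under median centering it differed by -0.58 and -0.56. The other 3 that rose in 4T1-TB, named after their values were seen, were Itgb2l, a beta-2 integrin-like gene, with 2.56, Ltf, which encodes lactoferrin, with 1.17, and Prtn3, proteinase 3, at least 1.84-fold (limma adjusted p = 0.0339, 0.0415 and 0.0687). The second probe of Ltf, detected on all 6 arrays, differed from WT by 2.37 in 4T1-TB and 0.96 in G-CSF. On the probes counted, Ltf and Prtn3 lost the criterion without any 1 of the WT or 4T1-TB arrays (1.12 to 1.23 and 0.89 to 1.14), Itgb2l without WT replicate 2 (2.35) or 4T1-TB replicate 2 (2.36), and Prtn3 also under median centering (1.19). Ngp, a cathelin-like protein of the specific granules, met the criterion at -3.42 in G-CSF with a limma adjusted p of 0.107, and in 4T1-TB at -4.32 (limma adjusted p = 0.045). Both calls were lost without any 1 of the WT or 4T1-TB arrays (-3.57 to -3.27 and -4.47 to -4.17), under neqc (-4.29 and -5.33) and under median centering (-2.41 and -3.42).

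Lyz2, which encodes lysozyme M, resembled Hp in that its probes disagreed. On its brightest probe it read 13.79 and 13.79 in WT, 7.79 and 8.62 in G-CSF and 8.02 and 7.98 in 4T1-TB, a difference from WT of -5.58 and -5.79 (SE 0.26 each, limma adjusted p = 0.000806 and 0.000696). Its other 2 probes, detected on 2 and on 6 arrays, differed from WT by 0.07 and 0.30 in G-CSF cells, and by 0.09 and 0.88 in 4T1-TB cells. Over the 20 granule genes the median difference was -0.01 for G-CSF and 0.09 for 4T1-TB. The count in G-CSF was 1 without WT replicate 1, 5 without G-CSF replicate 1 and 8 without G-CSF replicate 2. In 4T1-TB it was 4 without either WT array. Against G-CSF 2 met the criterion upward and 0 downward, where 0.142% and 0.00525% of all genes did. That count changed with the array left out, as did the count over all probes.

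**Figure D4:**
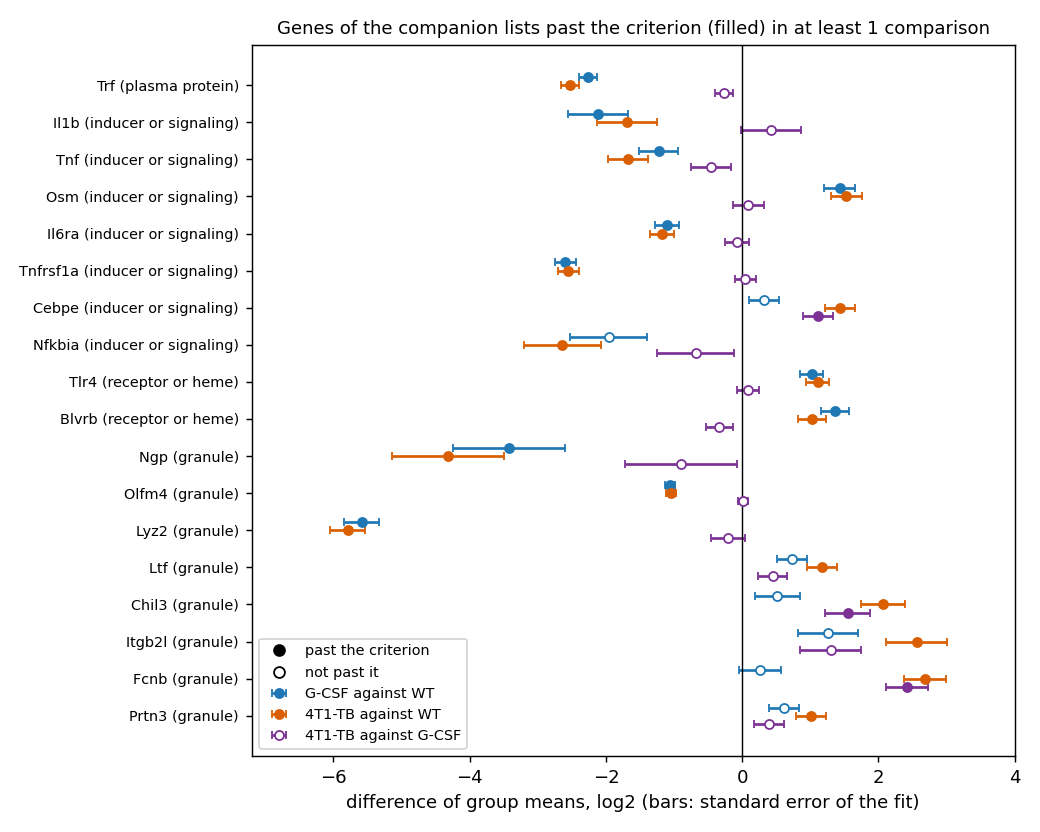
Differences of group means on the log2 scale (horizontal axis) for the 18 genes of the companion lists that met the criterion in at least 1 comparison (vertical axis, with the list in brackets), with the standard error of the fit as bars, filled where the criterion was met. Trf, Tnfrsf1a and the brightest probe of Lyz2 lie below WT in both groups, Osm above it, and Fcnb, Chil3 and Cebpe are apart in 4T1-TB.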

How the data were processed

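The 6 Illumina arrays, 2 for each of WT, G-CSF and 4T1-TB, measured RNA of sorted splenic CD11b+Gr-1high cells, and no sample was left out. The authors deposited probe intensities exported from GenomeStudio, each with a detection p-value. Their methods name background subtraction, but the lowest deposited intensity of an array was 85.3 to 91.8, so background remains, and changes of dim probes are understated. The authors also deposited log2 values, quantile normalized with lumi per their methods. These were used as deposited, and log2 with quantile normalization of the intensities gave them to within 4.99e-09. Among the intensities, 1 column each of G-CSF and 4T1-TB carries no number and was taken as replicate 1, since the other is numbered 2. Slide and scan were not given in the sources used here. The number of arrays limits the precision. Median intensity was 117.2 to 126.9, but most probes were not detected, so the median reflects the background. The 95th percentile of intensity was 247.3 and 207.2 in WT, 542.7 and 401.8 in G-CSF and 500.1 and 336.1 in 4T1-TB. The spread of the intensities thus differed between WT and the other groups, without overlap. Genes were named by GEO's annotation of the array, in which 34885 probes name 1 gene, 18 several and 10378 none.

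Groups were compared in limma 3.58.1 (R 4.3.3) with 1 model of the group means of all 6 arrays over all 45281 probes, 3 contrasts and empirical Bayes variances (3 residual and 2.59 prior degrees of freedom), and adjusted p-values by Benjamini-Hochberg over all probes. A probe met the criterion at 2-fold or more with P under 0.01. The code was tested on simulated data. The members, lists and tests were chosen with earlier results of these data known. All member probes are reported. The lists (other acute-phase and plasma proteins, inducers and signaling, receptors and heme clearance, granule proteins) used the probe with the highest mean per gene, and up to 4 genes per list and comparison that met the criterion were named, by unadjusted P, as were the 5 genes nearest to Saa3, Hp and Orm1 by Euclidean distance. Where a group had no array with a detection p under 0.05, the fold is a bound. Marker lists of other cell types were summed as intensities: 5 B cell markers gave 619 to 830 on the 6 arrays, 8 of tumor epithelium 943 to 997, 5 of eosinophils 594 to 1714 and 5 of adipocytes 611 to 641. Alternatives were neqc (offset 16), median centering, detected probes only, a block for the replicate number, a fit of only the 4 arrays in question, a prior with trend and robust estimation, the probe of a gene detected most often, and leaving out each array.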

Additional observations from a re-analysis of the deposited data

How the results depend on the processing

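With neqc background correction 2563, 2929 and 65 probes met the criterion in G-CSF against WT, 4T1-TB against WT and 4T1-TB against G-CSF, in place of 1302, 1589 and 34, and with median centering the last was 10. Leaving out 1 array gave 1051 to 2326, 1206 to 1879 and 23 to 554. The higher share among them moved from 45.8%, 50.2% and 97.1% to 55.8%, 58.4% and 90.8% with neqc and to 86.8%, 84.8% and 80% with median centering. In the order of the same comparisons, leaving out 1 array gave 1 to 2, 1 to 2 and 0 other acute-phase genes (1, 1 and 0 with all arrays), 2 to 6, 4 to 7 and 0 to 2 inducers (5, 7 and 1), 1 to 5, 0 to 3 and 0 to 2 receptors and heme genes (2, 2 and 0), and 1 to 8, 4 to 10 and 1 to 7 granule genes (3, 8 and 2). Against WT, other acute-phase genes numbered 3 in G-CSF and 2 in 4T1-TB with median centering, and 2 in 4T1-TB with neqc. Inducers numbered 8 in G-CSF with median centering and 3 with only the 4 arrays compared, receptors 4 in G-CSF with median centering and 4 in 4T1-TB with neqc. In 4T1-TB against G-CSF inducers numbered 0 with neqc and with median centering, and granule genes 1 with neqc, with median centering and with only the 4 arrays. The cause of these changes was not tested. Il6ra turned from -1.10 and -1.18 to 0.39 and 0.093 with median centering.

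The replicate numbers were not taken to pair the samples, since the labels tie no number to an experiment. Deviations from the group means of same-numbered arrays correlated at 0.02 (WT and G-CSF), -0.02 (WT and 4T1-TB) and 0.24 (G-CSF and 4T1-TB). The replicate 1 arrays of G-CSF and 4T1-TB were also both rich in red cell and lymphocyte genes. These values therefore do not show that the numbers are unpaired. Whether the numbers follow the 2 independent experiments is not given in the sources used here. With the replicate number as a block 1309, 1592 and 32 probes met the criterion, and the inducers in G-CSF numbered 4. Among the members, neqc gave -6.38 and -6.43 for Hp ILMN_2668509 and -6.66 and -7.59 for ILMN_2668510 against WT, and median centering -3.22 and -3.20, and -4.01 and -4.36. On ILMN_2668510 neither 4T1-TB array was detected, so the -7.59 of neqc is no measured fold. A level near the detection limit, as of Saa1, Saa2 and Orm2, bounds what these arrays can show and does not mean that the RNA was absent.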
